A study of Mus musculus with 3 samples.

Results

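The aminoacyl-tRNA synthetases are the enzymes that load each tRNA with its amino acid, and 35 of their genes were followed here among the 50600 genes counted. The members were taken by name: 19 genes whose enzymes work in the cytosol and 16 whose symbols end in 2 and whose enzymes work in mitochondria. No measured value entered that rule, but the members were chosen with earlier results of these data known. RNA was sequenced from primary T-helper 1 (Th1) cells of C57BL/6NJ mice, a CD4 T-cell type known for secreting interferon gamma, obtained by a protocol for differentiating CD4 T cells. There was 1 group of 3 libraries, numbered as biological replicates 1, 2 and 3 and carrying 1 donor record, with age and sex not given. Per the file headers the cells were sorted and taken at 72 hours, and no untreated or other cell type stands beside them. All comparisons below are therefore between genes or between libraries, and tests over the 3 libraries measure only the spread between these libraries.

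The libraries held 4482916, 266790 and 3733531 counts, so replicate 2 was 16.8-fold shallower than replicate 1. Levels are given in TPM, a share of the library scaled by gene length. Each counts 1 strand of each gene, and that strand may not be the one transcribed. A gene is called overlapped where its exons share bases with exons on the other strand, since its counts may then include RNA of its neighbour. That held for 11 of the 35 members (31.4%) and for 32.4% of the 10408 protein-coding genes detected at a mean of at least 1 TPM. The Th1 factor Tbx21 (70.5 ± 22.1 TPM, SD, n = 3), Ifng (604 ± 252 TPM) and Cd4 (174 ± 53.5 TPM) were present, and of the 5 Th1 markers 4 reached 10 TPM and Cxcr3 was the exception (1.30 TPM). Cd8a, Il5, Il17a, Ms4a1, Lyz2, Adgre1, Itgam, S100a8, S100a9, Hbb-bs and Hba-a1 had 0 counts in each library. Other genes of the same marker lists were detected: Il4 (9.61 ± 2.96 TPM) and Il13 (9.76 ± 8.79) of Th2 cells, Cd79a (8.23 ± 4.00) of B cells, Alas2 (3.58, 22.5 and 6.74 in the 3 libraries, overlapped) of erythroid cells and Cd8b1 (2.28 ± 2.26) of CD8 T cells. Among markers of other cells, the 2 above 50 TPM were both overlapped, the macrophage receptor gene Csf1r (85.4, 112.5 and 135.4 TPM) and the regulatory T-cell factor Foxp3 (64.9 ± 2.73 TPM). Their part in the results below was not tested.

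A synthetase joins 1 kind of amino acid to the tRNAs that read its codons, and thereby fixes the meaning of the code. Most animal cells keep separate nuclear genes for the cytosolic and the mitochondrial enzyme, while a few genes serve both places. Several cytosolic enzymes sit together in a large multi-synthetase complex held by scaffold proteins. When amino acids run short, the kinase GCN2 (gene Eif2ak4) raises the translation of the factor ATF4, which switches on many cytosolic synthetase genes through amino acid response elements. T cells increase protein synthesis and amino acid uptake strongly after activation.

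All 19 cytosolic genes were expressed above the middle of the detected genes, while the mitochondrial genes spread from near the counting floor to over 100 TPM. A mean of at least 10 TPM was reached by 26 of the 35 members, made up of 19 of 19 cytosolic and 7 of 16 mitochondrial genes. The same level was reached by 57.1% of the detected protein-coding genes and 43.6% of all protein-coding genes with a count. The median detected protein-coding gene had 12.8 TPM. Aars2, at 9.95 TPM, lay just under the minimum and Tars2, at 15.4, 16.7 and 6.94 TPM in the 3 libraries, just over it. On the log2(TPM + 1) scale the median level of the cytosolic genes was 6.51, 6.10 and 5.62 in replicates 1, 2 and 3 (mean 6.08 ± 0.44, SD, n = 3). The median level of the mitochondrial genes was 3.82, 2.39 and 3.09 (3.10 ± 0.71). The difference of the medians was 2.69, 3.71 and 2.53 (2.98 ± 0.64). The cytosolic median was thus higher in each library and by more than the spread between libraries. In replicate 2, 8 of the mitochondrial genes had under 3 counts, so its mitochondrial median is uncertain. Without replicate 2 the mean difference was 2.61. With 3 libraries a sign-flip permutation test cannot go below an exact p of 0.25, so none is given.

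**Figure D1:**
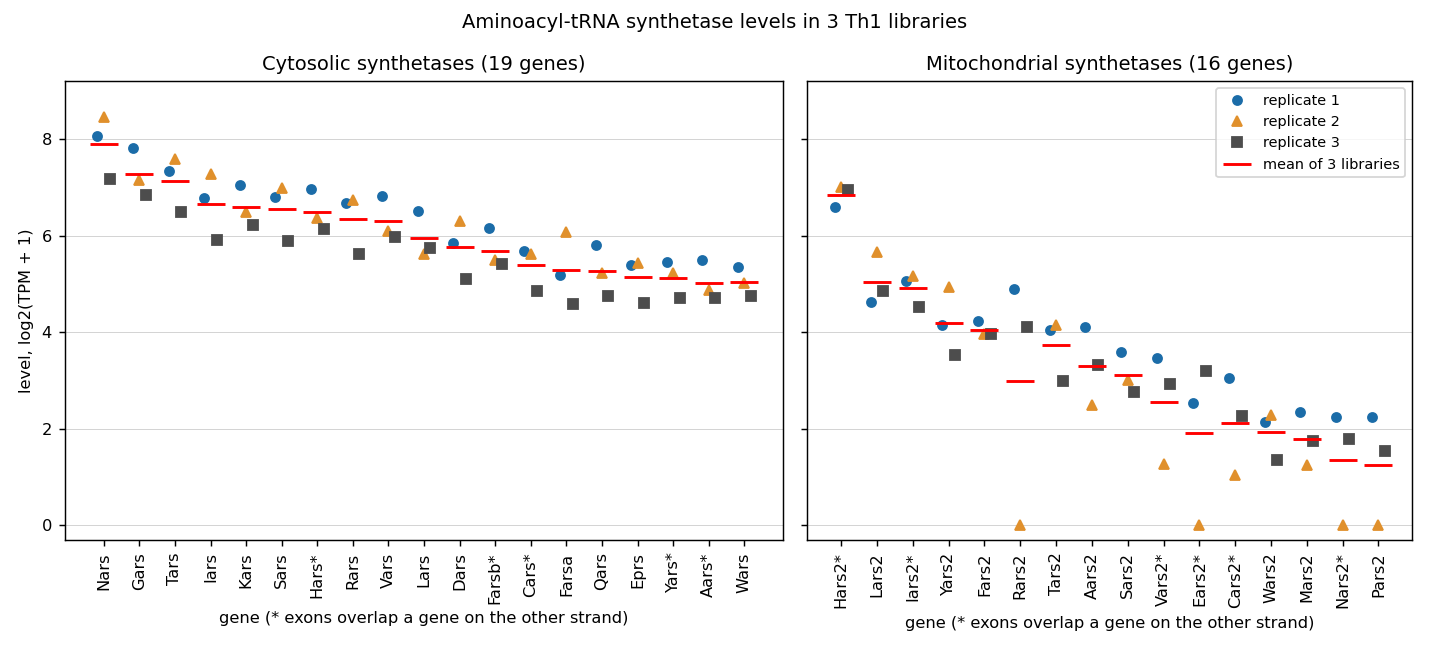
Level of each synthetase gene, as log2(TPM + 1) on the y axis, in replicates 1 to 3 (symbols) with the mean (red bar); genes on the x axis are ordered by mean TPM within the cytosolic and the mitochondrial set, and * marks an overlapped gene. The cytosolic genes lie in a band from Nars at 253 to Wars at 32.4 TPM, while the mitochondrial genes run from Hars2 at 115 to Pars2 at 1.87 TPM, and 4 of them are at 0 in replicate 2.

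Each gene was also set against the median detected protein-coding gene with edgeR's quasi-likelihood test, which uses the spread between libraries and was fitted over 11595 genes. At an adjusted p under 0.05, 22 of the 35 members were above the median gene (background 42.7% of all genes tested and 38.6% of the protein-coding ones). These were all 19 cytosolic genes and the mitochondrial Hars2, Iars2 and Lars2. Below the median gene were 6 members (background 22.2% of all genes tested and 24.9% of the protein-coding ones), namely Cars2, Ears2, Mars2, Nars2, Pars2 and Wars2. The DESeq2 Wald test called 22 members above the median gene, 19 of them cytosolic, and 5 below (background 39.7% above and 19.2% below), Ears2 no longer passing (DESeq2, adjusted p = 0.0600). Without replicate 1, and likewise without replicate 3, edgeR called 0 members below, with 1 at an unadjusted p under 0.05. The share of all genes called below was then also small, at 1.71% and 1.53%. Above the median gene, 22 or 23 members were called whichever library was left out. The background was 38%, 44.3% and 37.1% of all genes tested without replicates 1, 2 and 3.

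Nars, which charges tRNA with asparagine, had the highest level of all members. It had 265.8, 349.9 and 142.9 TPM in replicates 1, 2 and 3, a mean of 253 ± 104 TPM that exceeded 97.0% of the detected protein-coding genes. Its difference from the median gene was 4.25 on the log2 scale (edgeR, adjusted p = 8.44e-71). Replicate 3 was lowest and replicate 2 highest, and even the lowest value exceeded the mean of every other member but Gars and Tars. The gene lies on chromosome 18 from 64499665 to 64516557 (mm10).

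Gars, the glycine enzyme, came next and serves both the cytosol and mitochondria. Its levels were 223.9, 141.4 and 113.5 TPM (mean 160 ± 57.4), 3.63 above the median gene on the log2 scale (edgeR, adjusted p = 7.49e-56). The lysine enzyme Kars, the other gene that serves both compartments, had 131.4, 88.4 and 73.6 TPM (mean 97.8 ± 30.0). In TPM replicate 1 was highest and replicate 3 lowest in both genes, and the ranges of the 2 genes overlapped. The lowest library depended on the scaling. With the TMM-scaled library sizes used to compare libraries below, replicate 1 was again highest but replicate 2 was lowest in both. The ratio of highest to lowest library was then 1.55 for Gars and 1.45 for Kars. Gars lies on chromosome 6 from 55038007 to 55079500 and Kars on chromosome 8 from 111993443 to 112011323.

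Tars, the threonine enzyme, had 160.9, 190.8 and 88.1 TPM (mean 147 ± 52.8), and Iars, the isoleucine enzyme, 108.2, 154.1 and 59.1 TPM (mean 107 ± 47.5). In both genes replicate 2 was highest and replicate 3 lowest, as in Nars, Dars, Eprs, Farsa, Rars and Sars, the serine enzyme. Sars had 109.8, 124.9 and 58.2 TPM (mean 97.6, coefficient of variation 35.9%). The neighbours Iars, Kars, Sars and Hars in the order of means differed by less than the SD of any of them.

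The middle of the cytosolic set was made up of genes between 50 and 95 TPM. Hars, the histidine enzyme (overlapped), had a mean of 91.8 ± 29.2 TPM, Rars, the arginine enzyme, 84.8 ± 31.7, and Vars, the valine enzyme, 80.5 ± 27.5. Lars, the leucine enzyme, had 63.5 ± 23.2 TPM and Dars, the aspartate enzyme, 56.1 ± 22.4. The lower end held Cars for cysteine (42.3 ± 12.4 TPM, overlapped), Qars for glutamine (39.0 ± 14.7), Eprs, which carries the glutamate and the proline enzyme in 1 protein (35.4 ± 10.4), and Yars for tyrosine (34.7 ± 8.86, overlapped). Aars for alanine (32.5 ± 10.3, overlapped) and Wars for tryptophan (32.4 ± 7.13) were the lowest cytosolic genes. Wars had 40.0, 31.4 and 25.8 TPM and was still 1.36 above the median gene on the log2 scale (edgeR, adjusted p = 1.56e-06).

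Phenylalanyl-tRNA synthetase is the cytosolic enzyme built from separate subunits, with Farsa for the alpha and Farsb for the beta chain. Farsa had 35.2, 66.5 and 22.9 TPM (mean 41.6 ± 22.5) and Farsb (overlapped) 69.9, 44.3 and 41.8 TPM (mean 52.0 ± 15.6). The log2 ratio of TPM + 1, Farsa over Farsb, was -0.97, 0.58 and -0.84 (mean -0.41 ± 0.86), so the order of the subunits changed with the library. In replicate 2 the 2 genes rested on 39 and 15 counts.

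The order of members depended on the length each count was divided by. The deposited length of a gene is that of all its exons in all isoforms together, 18102 bp for Eprs, while its transcript with the longest coding sequence has 4906 bp. Dividing by the latter, an alternative chosen after the data were seen, moved 15 of the 35 means by over 1.5 times, 9 of them cytosolic. Sars then had the highest mean (207 TPM), followed by Nars (187), Gars (161), Kars (154) and Hars2 (115). Eprs moved from 35.4 to 100.9 TPM, from rank 17 to rank 6, and Tars from 147 to 74.4 TPM, from rank 3 to rank 12. All 19 cytosolic genes and 5 of 16 mitochondrial ones were above the median gene under this length (edgeR, background 43.1% of all genes tested).

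The 7 enzymes of the multi-synthetase complex in the list were Dars, Eprs, Iars, Kars, Lars, Qars and Rars, and all 7 exceeded 10 TPM. Their median mean level was 63.5 TPM, the level of Lars, which was also the median of all 19 cytosolic genes. The 3 scaffolds, which are not synthetases, were at like levels: Eef1e1 114 ± 32.5 TPM, Aimp2 56.4 ± 8.19 (overlapped) and Aimp1 38.3 ± 25.2 (overlapped). Aimp1 had 30.8, 66.4 and 17.6 TPM, with replicate 2 highest as in Farsa.

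Of the cytosolic genes, 12 are widely reported as ATF4 targets (Aars, Cars, Eprs, Gars, Iars, Lars, Nars, Sars, Tars, Vars, Wars and Yars). Their median mean level was 72.0 TPM, against 56.1 TPM for the 7 others, and the sets overlapped: the targets ran from 32.4 to 253 TPM and the others from 39.0 to 97.8. The 4 cytosolic genes with a mean of at least 100 TPM, Nars, Gars, Tars and Iars, were all in the target list, and so were the 4 lowest by the deposited length, Eprs, Yars, Aars and Wars.

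Promoter sequences from RefSeq (GRCm38.p6, 250 bases before to 50 after the start) were matched by symbol for 26 members, 12 cytosolic and 14 mitochondrial. There was no entry for Cars, Hars, Lars, Nars, Rars, Vars, Wars, Hars2 and Pars2. The core of the amino acid response element was searched as TGATGNAA on both strands. It was present in 5 of the 12 cytosolic promoters and in 0 of the 14 mitochondrial ones, against 4.13% of 17491 coding genes and 3.97% of all 32851 promoters. The 5 genes were Aars, Gars, Iars, Tars and Yars, which are all in the ATF4 target list, where 7 promoters were matched. A match of each gene is shown in a 30-base window, 5′ to 3′ on the strand of the gene, because these are the members with the core. The other 7 cytosolic promoters matched lack it, as the mitochondrial ones do. Capitals mark the match, which reads as the reverse complement in each gene but Yars.
Aars, chr8:111033840-111033869 (plus strand): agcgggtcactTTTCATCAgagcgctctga
Gars, chr6:55037960-55037989 (plus strand): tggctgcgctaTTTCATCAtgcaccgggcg
Iars, chr13:49682126-49682155 (plus strand): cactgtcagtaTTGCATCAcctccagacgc
Tars, chr15:11399655-11399684 (minus strand): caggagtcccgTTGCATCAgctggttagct
Yars, chr4:129189895-129189924 (plus strand): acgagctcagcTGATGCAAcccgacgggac

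Aars holds 2 matches, of which 1 is shown, and each other gene 1. The first base of the match shown was 30 bases before the start in Gars and 15 before in Tars. It lay after the start in Aars, Iars and Yars. The match of Aars that is not shown began 112 bases before the start. Levels by the deposited length did not separate these genes, since Gars, Tars and Iars were 3 of the 4 highest cytosolic genes and Yars and Aars 2 of the 4 lowest. The 250 bases before the start of Gars and of Tars, the 2 highest members with a promoter entry, are printed with the match in capitals to show its setting.
Gars, chr6:55037751-55038000 (plus strand): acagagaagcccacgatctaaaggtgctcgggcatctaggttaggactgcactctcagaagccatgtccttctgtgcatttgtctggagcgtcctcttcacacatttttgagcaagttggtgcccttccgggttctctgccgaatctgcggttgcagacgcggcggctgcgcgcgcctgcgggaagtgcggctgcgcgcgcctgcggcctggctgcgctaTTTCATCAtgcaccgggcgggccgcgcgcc
Tars, chr15:11399659-11399908 (minus strand): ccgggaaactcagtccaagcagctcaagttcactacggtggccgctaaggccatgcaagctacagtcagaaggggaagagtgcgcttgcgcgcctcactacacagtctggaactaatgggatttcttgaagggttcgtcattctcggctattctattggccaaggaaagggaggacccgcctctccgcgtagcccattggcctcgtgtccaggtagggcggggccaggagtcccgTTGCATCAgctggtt

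Other motifs were searched the same way on both strands. The E-box CACGTG was in Aars, Farsb, Iars and Tars and in the mitochondrial Ears2, against 8.91% of coding genes. The ETS core CCGGAAG was in 4 cytosolic promoters (Farsa, Gars, Kars and Sars) and 4 mitochondrial ones (Cars2, Mars2, Rars2 and Sars2), against 12.9%. The palindromic NRF1 motif was in 0 of the 26 promoters, against 1.47% of coding genes. Matches of different motifs shared bases in 0 of the member promoters, and a match describes the sequence alone.

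Among the mitochondrial genes, Hars2, the histidine enzyme (overlapped), stood apart at the top. It had 95.8, 126.6 and 122.4 TPM (mean 115 ± 16.7), which gave it rank 4 among the 35 members and placed it 3.21 above the median gene on the log2 scale (edgeR, adjusted p = 8.20e-44). Its start faces that of Hars on chromosome 18, where Hars2 runs from 36783008 to 36792562 on the plus strand and Hars from 36766530 to 36783205 on the minus strand. The 2 genes share 195 exon bases, 4.56% of the length of Hars2 and 9.81% of that of Hars, so counts there cannot be assigned by position alone.

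Lars2, the leucine enzyme, and Iars2, the isoleucine enzyme, were the other mitochondrial genes above the median gene. Lars2 had 23.5, 49.6 and 27.7 TPM (mean 33.6 ± 14.0), 1.37 above the median gene on the log2 scale (edgeR, adjusted p = 5.52e-08). Iars2 (overlapped) had 32.4, 34.8 and 21.9 TPM (mean 29.7 ± 6.85), 1.20 above it (edgeR, adjusted p = 2.74e-06). Iars2 shares 2034 exon bases with Rab3gap2 on the other strand, 22.9% of its length, and 114 with the antisense gene 2010103J01Rik. Lars2 and Hars2 were the mitochondrial genes whose means exceeded that of the lowest cytosolic gene.

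A middle set of 7 genes passed the test in neither direction. It held Yars2 for tyrosine (18.9 ± 9.71 TPM), Fars2 for phenylalanine (15.6 ± 1.86), Rars2 for arginine (14.9 ± 14.4) and Tars2 for threonine (15.4, 16.7 and 6.94 in the 3 libraries). Aars2 for alanine (9.95 ± 5.89 TPM), Sars2 for serine (7.97 ± 2.79) and Vars2 for valine (6.05 ± 4.36, overlapped) completed it. Fars2 had 17.8, 14.6 and 14.6 TPM, although replicate 2 rested on 4 counts. Using the length of the transcript turned the difference of Tars2 from the median gene from -0.06 to 0.96 on the log2 scale (edgeR, adjusted p = 0.00292).

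By the deposited length the lowest members were Ears2 for glutamate, Cars2 for cysteine, Wars2 for tryptophan, Mars2 for methionine, Nars2 for asparagine and Pars2 for proline. Their means ran from 4.31 ± 4.08 TPM in Ears2 (overlapped) down to 1.87 ± 1.85 in Pars2. With the length of the transcript, Cars2 (11.95 TPM, rank 26) and Ears2 (8.52 TPM, rank 28) lay above Fars2 (7.65 TPM, rank 30) and Vars2 (5.78 TPM, rank 31). Mars2 had 4.11, 1.37 and 2.35 TPM from 97, 2 and 54 counts, with a log2 difference of -2.13 from the median gene (edgeR, adjusted p = 8.30e-05). Pars2 had 24, 0 and 12 counts, and Nars2 (overlapped) 54, 0 and 35. Replicate 2 had 0 counts for Rars2, Ears2, Nars2 and Pars2 and under 3 counts for 8 members, all mitochondrial, so a level there was not measurable: 3 counts, the upper limit that a count of 0 allows, equal 8.38 TPM for Rars2, 4.51 for Ears2, 3.33 for Nars2 and 7.504 for Pars2. These limits cover counting error only.

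The share of all counts gave the same order of the sets. Cytosolic genes took 0.369% of the counts in replicate 1 (95% exact binomial interval 0.364 to 0.375), 0.361% in replicate 2 (0.338 to 0.384) and 0.237% in replicate 3 (0.232 to 0.242). Mitochondrial genes took 0.0729% (0.0704 to 0.0754), 0.0840% (0.0733 to 0.0957) and 0.0761% (0.0734 to 0.0790). Summed TPM of the cytosolic set exceeded that of the mitochondrial set 6.32-, 6.06- and 3.89-fold. The cytosolic share in replicate 3 was thus below those of replicates 1 and 2 beyond counting error, while the intervals of the mitochondrial share overlapped. A lower value in replicate 3 was not particular to the cytosolic genes. In TPM, 5220 protein-coding genes with no overlap had a median ratio of 0.585, replicate 3 over replicate 1. That ratio exceeded 1 in 2.55% of them. The mitochondrial share leaned on Hars2 and Lars2. Of its 3268, 224 and 2843 counts, Hars2 (overlapped) held 857, 70 and 1067, and Lars2 545, 71 and 625. Hars2 alone made up 95.8 of 294.7 summed TPM in replicate 1 and 122.4 of 261.7 in replicate 3. The shares without these genes were not tested.

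Pairs of genes for the same amino acid allow the comparison within each library. The log2 ratio of TPM + 1, cytosolic over mitochondrial, was above 0 in every library in 14 of 16 pairs, and the median of the pair means was 3.17, or 1.91 without replicate 2. Eprs enters with both Ears2 and Pars2, and Fars2 with both Farsa and Farsb, so the pairs are not independent. The highest ratio was that of Nars over Nars2, at 5.83, 8.46 and 5.38 (mean 6.55 ± 1.66), with Nars2 at 0 counts in replicate 2. Tars over Tars2 varied least, at 3.30, 3.43 and 3.49 (mean 3.41 ± 0.09), although it fell to 1.35 with the length of the transcript. Sars over Sars2 (3.43 ± 0.47), Wars over Wars2 (3.11 ± 0.34) and Vars over Vars2 (3.74 ± 0.96) were of like size.

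By the deposited length the ratio was smaller for alanine, isoleucine, phenylalanine and tyrosine. Aars over Aars2 had a mean log2 ratio of 1.72 ± 0.58, Iars over Iars2 1.74 ± 0.36 and Yars over Yars2 0.93 ± 0.55. For phenylalanine, Farsb over Fars2 had 1.64 ± 0.24 and Farsa over Fars2 1.23 ± 0.79. With the length of the transcript, Farsa over Fars2 rose to 3.10, Farsb over Fars2 to 2.58 and Aars over Aars2 to 2.36. Iars over Iars2 was then 1.30 and Yars over Yars2 0.97, and the median of the pair means was 2.87. For the arginine pair the library decided the value: Rars over Rars2 was 1.78, 6.73 and 1.52, and Rars2 had 166, 0 and 91 counts. The glutamate pair Eprs over Ears2 was alike, at 2.85, 5.42 and 1.42, with 0 counts of Ears2 in replicate 2.

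In 2 pairs the cytosolic gene was not higher throughout. Hars over Hars2 was 0.38, -0.62 and -0.82 (mean -0.36 ± 0.64), so Hars was higher in replicate 1 alone. Lars over Lars2 was 1.90, -0.04 and 0.89 (mean 0.92 ± 0.97), with near equal levels in replicate 2, and its mean turned to -0.61 with the length of the transcript. In the 7 pairs free of overlapped genes, the cytosolic gene was higher in every library in 6, and Lars over Lars2 was the exception.

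**Figure D2:**
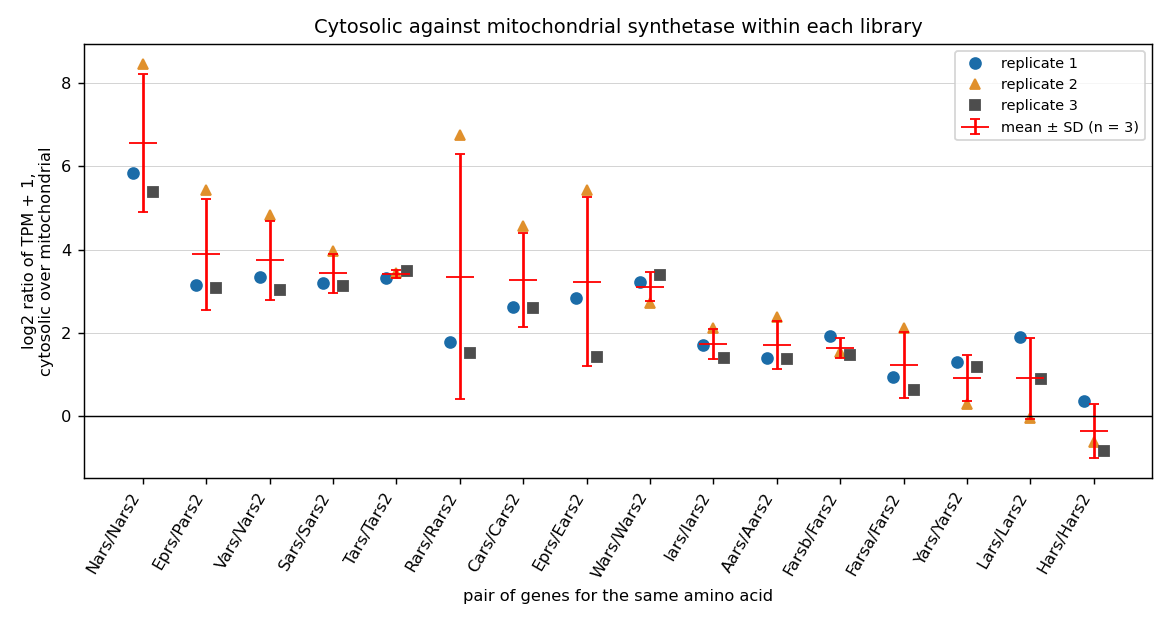
Log2 ratio of TPM + 1 (y axis) of the cytosolic over the mitochondrial gene for 16 pairs (x axis), by library (symbols) with the mean and SD over the 3 libraries (red); the line marks equal levels. Points lie above the line in all libraries in 14 pairs, and the pairs of leucine and histidine at the right cross it.

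Libraries were then compared gene by gene with a chi-square test on counts, using TMM-scaled sizes, which holds counting error only and says which genes differ between these 3 libraries. Requiring a 2-fold range between libraries besides an adjusted p under 0.05, 5 of the 35 members differed (14.3%), against a background of 32.2% of 11595 genes. With library totals in place of TMM, 12 members did (34.3%, against 35.4%). With TMM they were Farsa of the cytosolic and Cars2, Ears2, Lars2 and Rars2 of the mitochondrial genes. By library the background was 7.59% for genes highest in replicate 1, 10.5% for replicate 2 and 14.1% for replicate 3. Over genes with no overlap, 2 of 24 members differed, against 17.3%.

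Rars2 (166, 0 and 91 counts) was at least 3.35-fold higher in replicate 1 than in replicate 2, counting 3 for the 0 there (chi-square, adjusted p = 0.00412). Ears2 (52, 0 and 85 counts) was at least 2.44-fold higher in replicate 3 than in replicate 2 in the same way (chi-square, adjusted p = 1.40e-06). Lars2 (545, 71 and 625 counts) was 2.15-fold higher in replicate 2 than in replicate 1 (chi-square, adjusted p = 4.43e-19), and Farsa (334, 39 and 212 counts) 2.14-fold higher in replicate 2 than in replicate 3 (chi-square, adjusted p = 0.000179). Cars2 (111, 1 and 56 counts) was highest in replicate 1 (chi-square, adjusted p = 0.0306). Each of these calls rested on particular libraries. Without replicate 2 the ratio of Lars2 was 1.77, that of Farsa 1.02 and that of Rars2 1.18, and Ears2 was the member still called. Without replicate 1 the ratio of Lars2 was 1.32. Ears2 was not called without replicate 3 (ratio 1.05), and Cars2 was called in no analysis that left out a library.

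Replicates 1 and 3, the deeper libraries, showed how the members followed the common shift between libraries. For protein-coding genes with at least 30 counts in both, the ratio of TPM, replicate 3 over replicate 1, had a median of 0.585 in 5220 genes with no overlap and 0.722 in 2850 overlapped genes. It exceeded 1 in 2.55% of the former and 32.1% of the latter. All 19 cytosolic genes were below 1, from 0.470 to 0.652 (median 0.555). Of the 14 mitochondrial genes with enough counts 3 were above 1: Hars2 (1.28, overlapped), Ears2 (1.68, overlapped) and Lars2 (1.18, no overlap). The share of counts in overlapped genes was 51.7%, 55.1% and 66.5% over the libraries in order, and the part of this share in the ratios of the members was not tested. Scaled over genes with no overlap alone, the median of such protein-coding genes was 0.920, that of the 14 cytosolic genes without overlap 0.864, and Lars2 had 1.85.

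**Figure D3:**
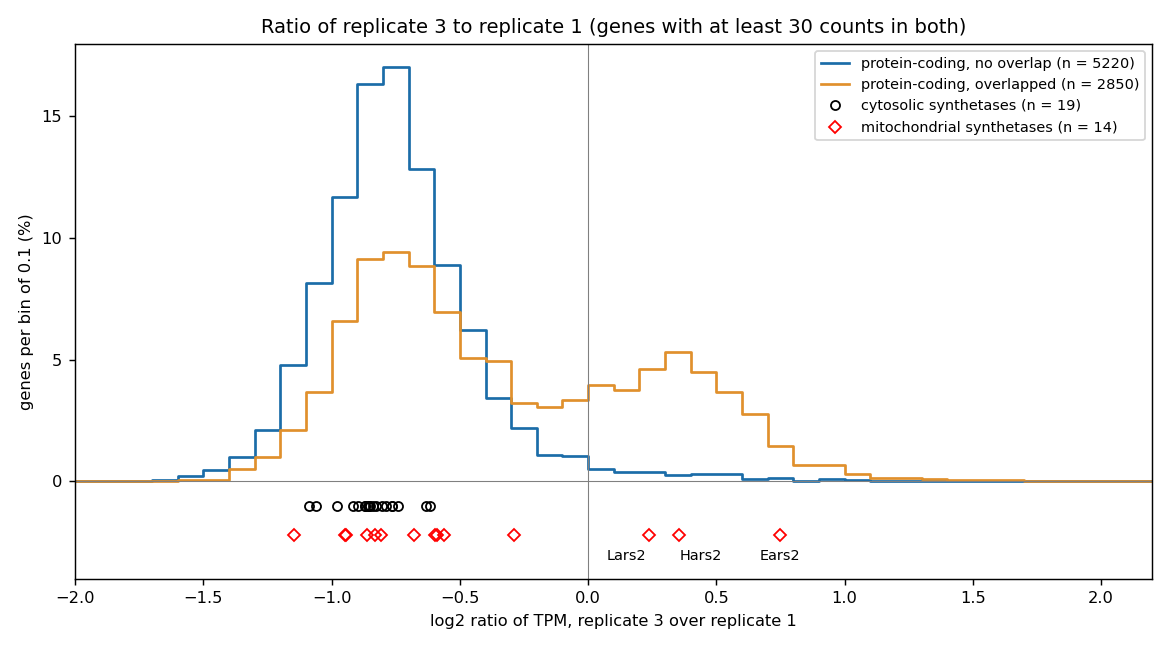
Log2 ratio of TPM, replicate 3 over replicate 1 (x axis), as the percentage of protein-coding genes per bin of 0.1 (y axis) with and without overlap (lines), and for the cytosolic (circles) and mitochondrial (diamonds) synthetase genes with at least 30 counts in both, set below the lines for clarity. The 19 cytosolic genes lie within the peak of the genes with no overlap, and Lars2, Hars2 and Ears2 lie to the right of 0.

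The neighbours on the other strand differed in kind. Cars2 shares 422 exon bases with the protein-coding Naxd, which had 59.3 ± 11.2 TPM against 4.07 ± 3.14 for Cars2. Vars2 shares 465 bases with the antisense gene Gm20483 (119 ± 102 TPM), Nars2 284 with C230038L03Rik (11.9 ± 4.62 TPM) and Ears2 89 with Ubfd1 (11.2 ± 3.82 TPM). Aars shares 77 bases with the miRNA gene Gm24103 (147 ± 135 TPM, from 8, 3 and 14 counts). In these 5 the neighbour had the higher mean. Farsb shares 248 bases with Sgpp2 (1.99 ± 2.16 TPM), Cars 211 with the pseudogene Gm15580 (1.16 ± 1.01) and Yars 30 with C77080 (8.04 ± 2.63). For Farsb, Cars and Yars the synthetase had the higher mean. The levels of overlapped members are uncertain, also where the synthetase had the higher mean. The counted strand may not be the one transcribed, so the TPM of a neighbour does not measure how far.

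Genes that work with the synthetases were read beside them. Of the 15 genes of the amino acid response 11 reached 10 TPM. The background was 57.1% of detected protein-coding genes and 43.6% of all protein-coding genes with a count. Of 14 tested, 9 were above the median gene (edgeR, background 42.7% of all genes tested and 38.6% of the protein-coding ones). The other 5 did not pass the test. Atf4, the factor itself, had 505.7, 336.7 and 252.6 TPM (mean 365 ± 129), and its target Ddit3 180 ± 46.7 (overlapped). Ddit3 had 137.9, 230.4 and 172.6 TPM in the 3 libraries. It shares exon bases with Gm4189 and with Mars, a synthetase gene that is not among the members, so its level is uncertain. Shmt2, a serine hydroxymethyltransferase, had 128 ± 49.5 TPM (overlapped) and Asns, which makes asparagine, 51.8 ± 25.9. The lowest were the kinase gene Eif2ak4 (10.1, 4.15 and 6.12 TPM), the glutathione-degrading Chac1 (3.64 ± 3.51) and the cystine transporter Slc7a11 (0.243 ± 0.216). RNA of Nars, whose enzyme uses asparagine, exceeded that of Asns, whose enzyme makes it, in each library (means 253 and 51.8 TPM).

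Of the 12 genes of tRNA delivery and proofreading 6 reached 10 TPM, against 57.1% of detected protein-coding genes. Of 10 tested, 5 were above the median gene and 2 below (edgeR, background 42.7% above and 22.2% below of all genes tested). The counts of this list were thus near the shares of all genes. The elongation factor Eef1a1, which takes charged tRNA to the ribosome, had 4318 ± 1208 TPM, and its exchange factor subunits Eef1b2 (694 ± 220, overlapped) and Eef1g (605 ± 207) followed. The lowest were the alanyl-tRNA editing gene Aarsd1 (0.473 ± 0.564 TPM), the D-aminoacyl-tRNA deacylase Dtd2 (2.59 ± 2.41) and Sepsecs (2.98 ± 0.813), which makes selenocysteine on its tRNA.

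For mitochondrial protein synthesis beyond the synthetases, 8 of 13 translation genes and 71 of 78 mitochondrial ribosome genes reached 10 TPM. The background was 57.1% of detected protein-coding genes. Above the median gene were 6 of 13 and 55 of 77 tested, and below it 1 and 2 (edgeR). Of all genes tested 42.7% were above and 22.2% below. At 10 TPM and above the median gene, the translation genes were thus near the share of all genes, and the ribosome genes exceeded it. Median mean levels of the translation and ribosome genes were 15.8 and 32.9 TPM, against 8.96 TPM for the 16 mitochondrial synthetases. The initiation factor Mtif3 had 366 ± 51.3 TPM (overlapped), Gatc of the glutamyl-tRNA amidotransferase 77.8 ± 5.48 and Gfm2 53.6 ± 9.87 (overlapped). Gatb, another subunit of that amidotransferase, had 4.94 ± 1.90 TPM. The amidotransferase makes glutaminyl-tRNA in mitochondria, where Ears2 charges the tRNA with glutamate first, and its subunits Gatc, Qrsl1 (6.15 ± 2.06 TPM) and Gatb were at unequal levels. The release factor Mtrf1 was lowest of the list (3.54 ± 3.36 TPM).

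**Figure D4:**
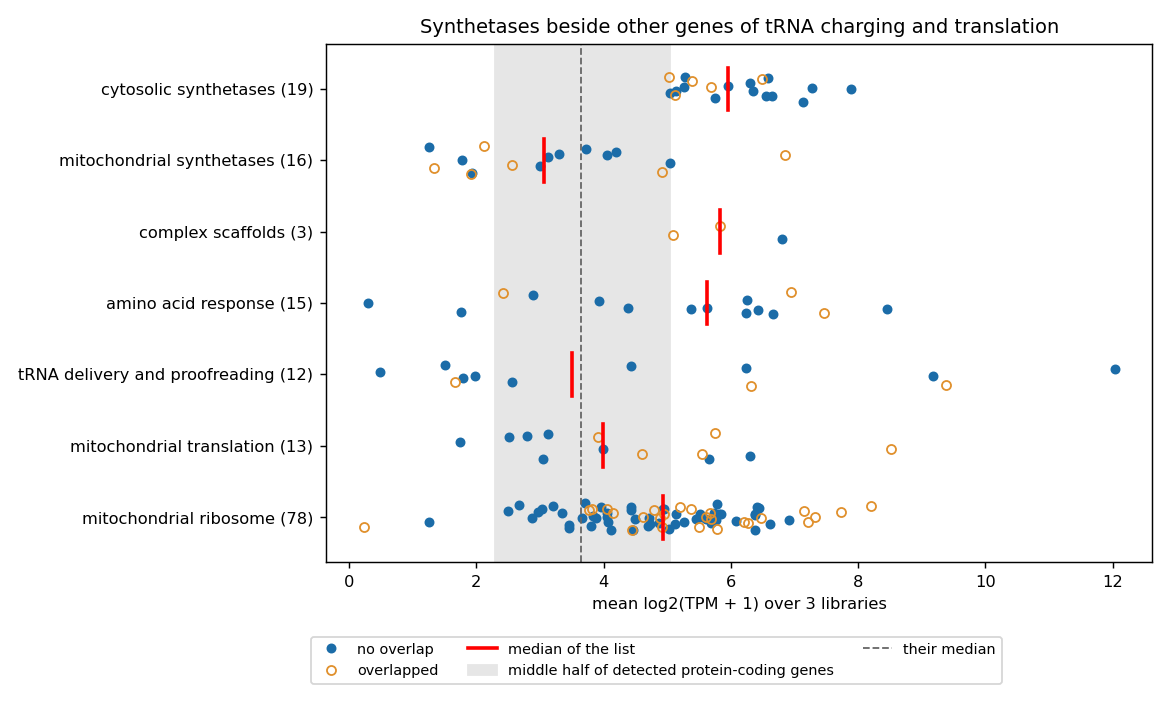
Mean log2(TPM + 1) over the 3 libraries (x axis) of each gene in the synthetase sets and in lists of related genes (y axis, with the number of genes); filled points have no overlap, open points are overlapped, red bars are medians, and the grey band and broken line give the middle quartiles and the median of 10408 detected protein-coding genes. The cytosolic set lies at or beyond the upper edge of the band, and the mitochondrial set centres below the broken line.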

How the data were processed

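Per the file headers, the authors counted fragments per gene with featureCounts 1.4.6-p4 (both ends mapped, exons of GENCODE mouse release 13, mm10, strand setting 1), and the deposited values are raw counts, 1 library per file. The aligner and its version are not given in the sources used here. Total RNA is named in the labels, but their library protocol has polyA RNA in its title. Names came from GENCODE mouse release 21 by gene identifier (50376 of 50600 matched). TPM was computed from the counts and the deposited exon length.

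The libraries of 266790 to 4482916 counts formed 1 group. The chi-square test and edgeR 4.0.16 were run over all genes with a mean count of at least 10, with Benjamini-Hochberg adjustment. edgeR's test set the intercept against an offset holding TMM-scaled size, length and the median rate. It was computed from the quasi-likelihood fit, since glmQLFTest takes no design of 1 column. limma 3.58.1 and DESeq2 1.42.0 were alternatives. The procedures were tested on simulated data. Every member may be named, with each gene opposite to one, and of related lists the 3 highest and 3 lowest plus genes a result turns on. Asns and the marker genes named were chosen after their values were seen. Members and lists were chosen with earlier results of these data known. Intervals cover counting error only.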

Additional observations from a re-analysis of the deposited data

How the results depend on the processing

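No paired analysis was possible because all libraries form 1 group. The cause of the changes below was not tested, except that fewer genes or libraries enter some settings and that scaling over fewer genes raises TPM. A minimum of 100 TPM kept 5 of the 35 members, among them the overlapped Hars2, against 890 of 10408 detected protein-coding genes. The cytosolic gene was higher in every library in 14 or 15 of 16 pairs whichever replicate was left out. On members with no overlap, scaled over such genes alone, the cytosolic median was 7.89 and the mitochondrial median 4.81 on the log2(TPM + 1) scale, with a difference of 3.08. The cytosolic gene was higher in every library in 6 of 7 pairs. That scaling by itself raises the level of every gene kept, so these medians are not comparable with those over all genes. By TPM over all genes, the medians without overlap were 6.72, 6.39 and 5.81 for cytosolic genes in replicates 1, 2 and 3. For mitochondrial genes they were 4.07, 2.75 and 3.15. The median pair ratio ran from 1.91 to 3.24 over the left-out replicates. Members differing between libraries numbered 12 with library totals (34.3%, against 35.4% of all genes), 2 of 23 among genes averaging 100 counts or more (8.7%, against 34.1%), 18 at a ratio of at least 1.5 (51.4%, against 47.8%), 2 of 24 with no overlap, and 1 to 3 when a replicate was left out (against 11.8% to 18% of all genes). With library totals or a ratio of 1.5 the members' share was thus near that of all genes. Against the median gene, edgeR with no overlap put 3 of 24 members below (12.5%, against 14.9% of all genes), and leaving out a replicate gave 0 to 5 below (against 1.71%, 32.2% and 1.53% without replicates 1, 2 and 3). With the length of the transcript, chosen after the data were seen, the difference from the median gene changed sign for Tars2 (to 0.96) and Cars2 (from -1.42 to 0.0060), and 9 of 16 pair ratios moved beyond their SD. The difference of medians ran from 2.61 to 3.20 over left-out replicates and kept its sign under each setting. The shallow replicate 2 limits the mitochondrial genes most.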
